A study of Mus musculus with 6 samples.

Results

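The pore-forming (alpha) subunits of voltage-gated sodium channels were examined in mouse dorsal root ganglia, leaving aside the nociceptor channel genes Scn9a, Scn10a and Scn11a. The members were Scn1a, Scn2a, Scn3a, Scn4a, Scn7a and Scn8a, taken by their NCBI gene identifiers, which makes 6 of the 36528 genes in the files. Bulk RNA-seq libraries were available from 3 CreER-positive mice, with both Scn9a alleles flanked by loxP sites and the pCAAG.Cre.ER transgene, and from 3 control littermates with the same floxed alleles and no transgene. All were females of 12 to 18 weeks, and each library held the 6 lumbar ganglia (L4 to L6) of 1 mouse. The series title calls the knockout global. The dosing that activates CreER, a Cre recombinase held inactive until its ligand binds, is not given in the sources used here.

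An alpha subunit forms the whole sodium-selective pore, and its opening produces the rising phase of the action potential. Scn1a (Nav1.1) and Scn8a (Nav1.6) are channels of myelinated neurons, and Nav1.6 is the main channel of nodes of Ranvier. Scn2a (Nav1.2) is best known from unmyelinated axons and initial segments of the central nervous system, and Scn3a (Nav1.3) from embryonic neurons. Scn4a (Nav1.4) is the channel of skeletal muscle. Scn7a (Nax) encodes an atypical member that is not gated by voltage in the usual way, acts in sodium sensing in the brain and is also known from glia of peripheral nerve.

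Total counts were 40237131 to 63332040 per library. Scn9a had 620, 564 and 574 CPM (read counts scaled to a common library size) in CreER-positive mice, against 635, 611 and 557 CPM in controls, a log2 fold change of -0.04 (edgeR adjusted p 0.918). The gene width in the files is close to the whole span of Scn9a, so the counts may include reads outside the deleted part. This was not tested, and the Scn9a value does not check the genotype labels. Gm13629, an antisense gene that overlaps Scn9a by 65947 bases, had 28789 to 34629 counts in CreER-positive libraries and 24672 to 33401 in controls, nearly as many as Scn9a itself. The use of strand in counting is not given, so the same reads may be counted for both genes. This was not tested, and the counts do not give the level of antisense RNA. Skeletal muscle transcripts, summed over 12 markers, had 10.9 to 13.9 CPM in CreER-positive libraries, against 11.4, 78.7 and 11.1 CPM in control replicates 1 to 3, so that control replicate 2 stood apart. CreER-positive replicate 3 had the lowest pan-neuronal marker level, with a mean of -0.16 on the log2 scale relative to controls, against 0.04 and 0.06 in CreER-positive replicates 1 and 2 and -0.03 to 0.02 in controls. Of 10 pan-neuronal genes edgeR called 0, with 3 at an unadjusted p under 0.05, limma-voom 0 and DESeq2 1 (Isl2, log2 fold change -0.42, edgeR adjusted p 0.0508), and the median log2 fold change was -0.02. EdgeR called Isl2 with upper-quartile factors (0.0414), total counts alone (0.0230) or a filter of 1 CPM (0.0455), and both Isl2 (0.0150) and Tubb3 (0.0326) without CreER-positive replicate 3. The ganglionic label fitted its markers, as the peripheral neuron filament gene Prph averaged 1434 CPM in CreER-positive mice and 1340 CPM in controls.

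Scn3a, Scn2a, Scn1a and Scn7a lie on chromosome 2 in the same cluster as Scn9a, in GRCm38. Scn1a (NCBI gene 20265, 66270781 to 66440837, minus strand) ends 39.2 kb from Scn9a on one side, and Scn7a (20272, 66673426 to 66784910, minus strand) begins 38.3 kb from it on the other. Scn2a (110876, 65620764 to 65767447, plus strand) is 713 kb away and Scn3a (20269, 65457118 to 65567591, minus strand) 912 kb away. Scn4a (110880) lies on chromosome 11 (106317545 to 106365559, minus strand), and Scn8a (20273) on chromosome 15 (100869863 to 101045938, plus strand). The gene width in the files equalled the annotated span of Scn1a, Scn2a and Scn7a and lay close to it for the other members. Annotated exons make up 6.55% of the width for Scn1a, 6.58% for Scn7a, 8.68% for Scn2a, 8.95% for Scn8a, 11.3% for Scn3a and 14.7% for Scn4a. Most of the width of these genes is therefore intronic.

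The coding sequences of the members are close enough in places that a short read cannot be given to 1 gene by its letters. In the longest coding transcript of each gene (GENCODE M21, GRCm38), Scn1a and Scn2a shared an unbroken run of 188 bases, and Scn1a and Scn3a shared 143 bases. Scn3a also shared 184 unbroken coding bases with Scn9a, which had far more counts in the same libraries. Of all 50-base windows of the coding sequence, 13.2% in Scn3a, 11.3% in Scn2a and 7.54% in Scn1a occurred letter for letter in another member or in Scn9a. The share was 0.101% in Scn8a, and 0 windows in Scn4a and Scn7a. How reads with several matches were treated is not given in the sources used here, so the exonic part of the counts of Scn1a, Scn2a and Scn3a is uncertain to this extent.

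The levels of the members spanned a wide range, and Scn7a stood far above the others. Per kb of gene width, Scn7a had 9.07 ± 0.107 CPM in CreER-positive mice and 9.21 ± 0.530 CPM in controls (SD, n = 3 each). Scn8a had 0.851 ± 0.119 CPM per kb in CreER-positive mice and 0.828 ± 0.0498 in controls. For Scn1a the values were 0.727 ± 0.0874 in CreER-positive mice and 0.782 ± 0.0363 in controls. Scn8a and Scn1a thus lay side by side, far below Scn7a. Scn2a stood at 0.257 ± 0.0133 CPM per kb in CreER-positive mice and 0.270 ± 0.0120 in controls. Scn4a had 0.143 ± 0.0177 CPM per kb in CreER-positive mice and 0.137 ± 0.0111 in controls. Scn3a was at the bottom, with 0.113 ± 0.0024 in CreER-positive mice and 0.12 ± 0.0074 in controls. The mean of Scn7a over the 6 libraries was 10.9 times that of Scn8a, the next member. The libraries of Scn8a and Scn1a overlapped, as did those of Scn4a and Scn3a, and the other neighbours in the order were separated in every library.

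Divided by merged exon length instead of width, the order was Scn7a, Scn1a, Scn8a, Scn2a, Scn3a and Scn4a. The 2 pairs that changed places, Scn1a with Scn8a and Scn3a with Scn4a, overlapped between libraries on both scales. Within every single library Scn8a lay above Scn1a per kb of width and below it per kb of exon, so their order depended on the length used. Scn4a lay above Scn3a per kb of width in every library but control replicate 1. Per kb of exon Scn3a was the higher in every library but CreER-positive replicate 2. Scn7a was then 12.1 times the next member, at 138 ± 1.62 CPM per kb of exon in CreER-positive mice and 140 ± 8.05 in controls. For scale, the nociceptor channel gene Scn10a (Nav1.8) had 7.83 ± 0.341 CPM per kb of width in CreER-positive mice and 9.74 ± 0.358 in controls. Scn7a thus lay in the range of a major nociceptor channel on this scale, and the other members lay far below both.

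**Figure D1:**
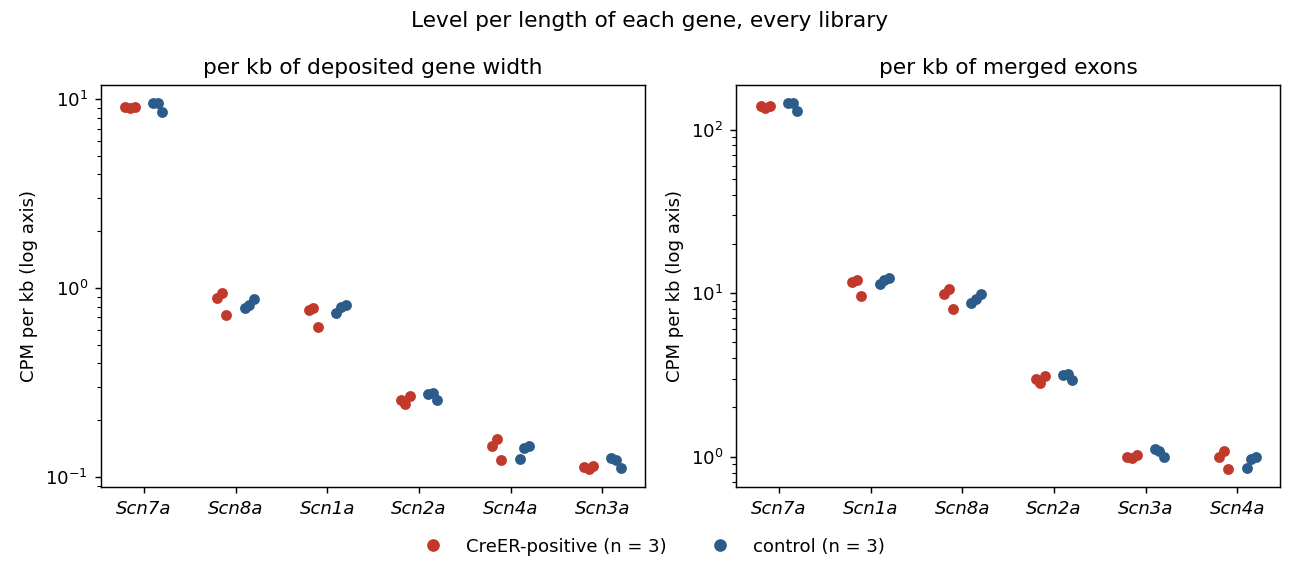
CPM per kb of each member in every library, on log axes, divided by the deposited gene width (left panel) or by merged exon length (right panel); red points are CreER-positive and blue points control libraries, n = 3 each. By the mean over the 6 libraries Scn7a is 10.9 times the next gene in the left panel and 12.1 times in the right, and the neighbours that swap places overlap.

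No member passed the test between the groups. By edgeR's quasi-likelihood test 0 of 6 were called at an adjusted p of 0.05, against a background of 0.726% of 22043 tested genes; DESeq2 and limma-voom also called 0. At an unadjusted p under 0.05 there were 0 members, against 10.6% of tested genes. The CPM of the groups overlapped for every member, while 15.9% of tested genes did not overlap. The log2 fold changes ran from -0.11 to 0.05 with a median of -0.05, against a median of 0.00 and an interquartile range from -0.09 to 0.09 over all tested genes. All 6 passed the filter on low counts.

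The intervals give the sizes of change that these animals leave possible. The lowest bound of any 95% interval was -0.30 on the log2 scale, for Scn1a, and the highest was 0.31, for Scn4a. The intervals therefore reached at most 18.7% below and 23.7% above the control level. A p that misses the threshold does not show that the groups had equal levels.

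**Figure D2:**
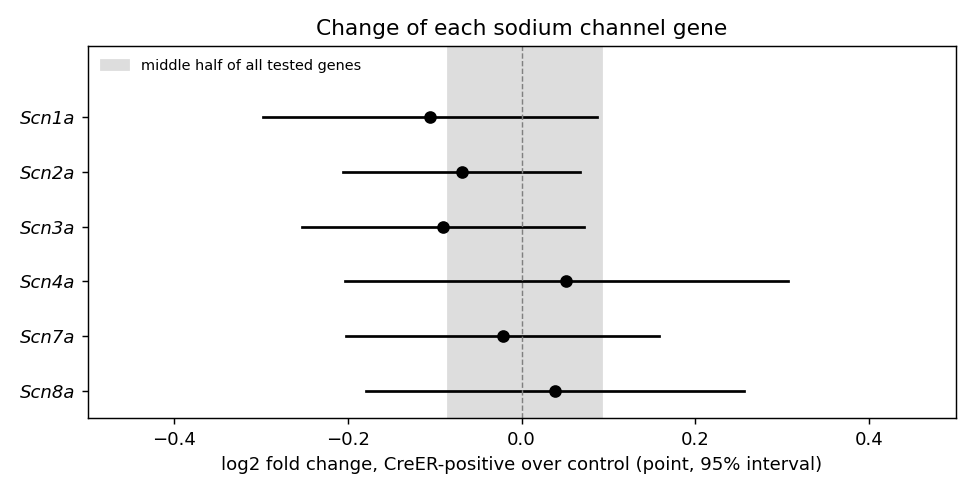
Log2 fold change of each member, CreER-positive over control (point), with its 95% interval (line) from edgeR; the grey band is the interquartile range of all tested genes. Every interval includes 0, and the widest, that of Scn4a, runs from -0.20 to 0.31.

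Among the channels of myelinated neurons, Scn1a had 131, 134 and 107 CPM in CreER-positive replicates 1 to 3, against 126, 134 and 138 CPM in control replicates 1 to 3. A single CreER-positive library, replicate 3, lay below every control, and the other 5 libraries fell within 126 to 138 CPM. The means were 124 ± 14.9 CPM in CreER-positive mice and 133 ± 6.16 CPM in controls (SD, n = 3 each), with a log2 fold change of -0.11 ± 0.09 (SE) and an edgeR adjusted p of 0.746. The exact two-sided permutation p was 0.4, where 3 animals against 3 allow none below 0.1. Without CreER-positive replicate 3 the estimate was -0.01.

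Scn8a had 156, 167 and 126 CPM in CreER-positive mice, against 138, 144 and 155 CPM in controls. CreER-positive mice gave both the highest and the lowest values of this gene, so the groups overlapped fully. The log2 fold change was 0.04 ± 0.10 (SE; edgeR adjusted p 0.932, exact permutation p 0.8). It was 0.15 without CreER-positive replicate 3 and -0.04 without CreER-positive replicate 2, the library at the top.

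Scn1a and Scn8a were both lowest in CreER-positive replicate 3, at -0.32 and -0.20 on the log2 scale relative to the control mean. In the same library the mean of 12 markers of large-diameter A-fibre neurons was -0.15, that of pan-neuronal markers -0.16 and that of Schwann and satellite glia markers 0.17. The glial mean takes in Fabp7, at 374 CPM there and 127 to 185 CPM in the other libraries. In CreER-positive replicate 2, where Scn8a was highest (0.19), the A-fibre mean was also highest (0.16). Scn1a was at 0.01 in that library and highest in control replicate 3 (0.06), where the A-fibre mean was 0.08. Scn4a was also highest in CreER-positive replicate 2 (0.20). The summed A-fibre level was 4762 to 6988 CPM in CreER-positive libraries and 5037 to 6014 CPM in controls. Most of it came from the neurofilament genes Nefl, Nefm and Nefh, so the sum says little of the other markers. The part of this list in the values of Scn1a and Scn8a was not tested. In bulk tissue fewer cells of a type and less RNA per cell cannot be told apart.

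**Figure D3:**
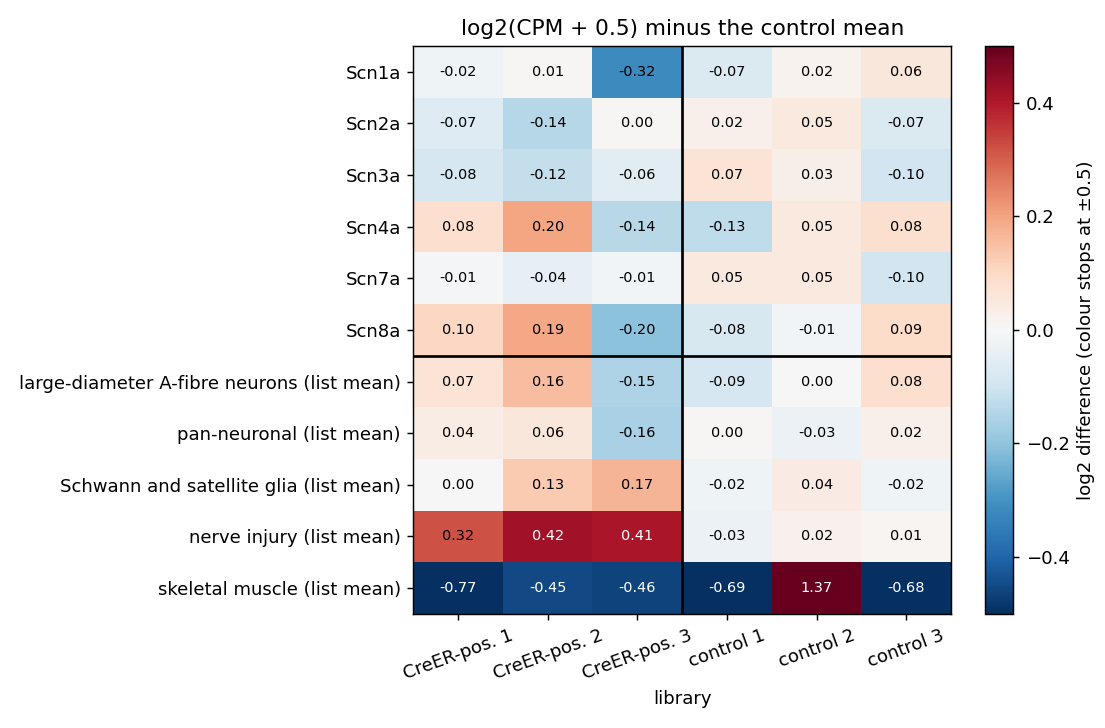
Difference of log2(CPM + 0.5) from the control mean in each library (columns, CreER-positive left of control), for each member and for the mean over the tested genes of 5 marker lists; the printed number is the log2 difference. Scn1a and Scn8a are lowest in CreER-positive replicate 3, where the A-fibre and pan-neuronal lists are lowest too, while muscle markers stand out in control replicate 2 alone.

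Within a library, the ratio of Scn1a to Scn8a varied little, and its values did not overlap between the groups. Scn1a had 0.837, 0.801 and 0.843 counts per count of Scn8a in CreER-positive mice, against 0.916, 0.932 and 0.891 in controls. All 3 CreER-positive ratios lay below all 3 control ratios, including CreER-positive replicate 3, in which both genes were low. The means were 0.827 ± 0.0227 in CreER-positive mice and 0.913 ± 0.0205 in controls (SD, n = 3 each), a log2 difference of -0.14. This pair was singled out after its values were seen. Of the 15 member pairs compared, 3 did not overlap between the groups, against a background of 16.1% of all pairs of tested genes. The other 2 were Scn1a to Scn4a, at 17.6 to 18.7 in CreER-positive mice and 19.8 to 21.1 in controls, and Scn3a to Scn7a, with a log2 difference of -0.07. Each of the 3 had an exact permutation p of 0.1, the smallest possible, and an adjusted p of 0.5 over the 15 pairs, so none passed.

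**Figure D4:**
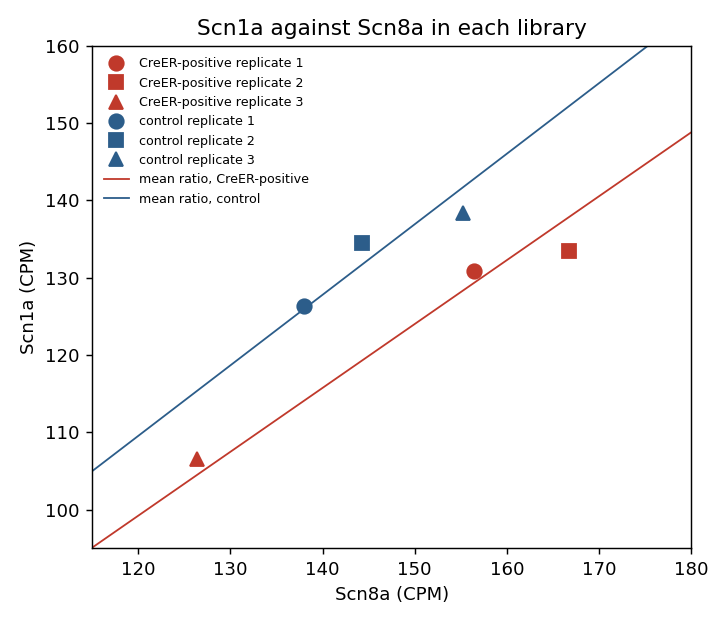
Scn1a CPM (vertical axis) against Scn8a CPM (horizontal axis) in each of the 6 libraries; lines through the origin mark the mean ratio of each group, and neither axis starts at 0. The CreER-positive libraries (red) lie around a ratio of 0.827 and the control libraries (blue) around 0.913.

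Of the members better known from the central nervous system and the embryo, Scn2a had 37.8, 35.8 and 39.7 CPM in CreER-positive mice, against 40.2, 40.9 and 37.6 CPM in controls. Control replicates 1 and 2 lay above every CreER-positive library, and control replicate 3 lay among the CreER-positive values. The log2 fold change was -0.07 ± 0.06 (SE; edgeR adjusted p 0.767, exact permutation p 0.3), the tightest estimate among the members. Scn3a had 12.5, 12.2 and 12.7 CPM in CreER-positive mice, against 13.9, 13.5 and 12.4 CPM in controls. The same pattern held here, with control replicate 3 inside the CreER-positive range and the other controls above it. The log2 fold change was -0.09 ± 0.07 (SE; edgeR adjusted p 0.743, exact permutation p 0.3).

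Scn3a is known in rat to be expressed again in sensory neurons after axotomy. It was read beside 13 nerve injury genes, of which 12 were tested. A single one was called, higher: the cholecystokinin receptor gene Cckbr, at 0.317, 0.439 and 0.658 CPM in CreER-positive mice, against 0.0492, 0.0902 and 0.0632 CPM in controls, a log2 fold change of 2.71 ± 0.43 (SE; edgeR adjusted p 0.0266). Its control values lay near the floor, and it passed the low-count filter through the CreER-positive libraries alone. The same held for Sprr1a, at 0.0984 to 0.158 CPM in controls and 0.225 to 0.504 CPM in CreER-positive mice. A gene that passes in this way can only appear higher, and both are among the 12 tested. The Cckbr call ended without control replicate 1, 2 or 3 (0.132, 0.111 and 0.148), without CreER-positive replicate 2 (0.0552), and without control replicate 2 and CreER-positive replicate 3 together (0.0765). DESeq2 gave Cckbr no adjusted p, and a filter of 1 CPM removed it. Other settings called more of the list by edgeR, with 5 genes without CreER-positive replicate 3 (Cckbr, Atf3, Sox11, Fst and Sprr1a), 3 without CreER-positive replicate 1 (Cckbr, Sox11 and Fst) and 3 with no count filter (Cckbr, Atf3 and Fst). With control replicate 2 and CreER-positive replicate 3 both left out, 1 gene was called, Atf3 (0.0287). The transcription factor gene Atf3 had a log2 fold change of 0.64 (adjusted p 0.0523), the activin antagonist gene Fst 0.85 (0.0538) and the transcription factor gene Sox11 0.48 (0.0566). In all, 9 had an unadjusted p under 0.05, DESeq2 called 4 (Atf3, Sox11, Jun and Fst) and limma-voom 1 (Cckbr), and the list's median was 0.51, against 0.00 for all tested genes. Scn3a had a negative estimate in these same libraries and in all 15 alternative fits, from -0.14 to -0.05. Its interval in the main fit ran from -0.25 to 0.07 (edgeR adjusted p 0.743), so a change in either direction remained possible. The alternative fits reuse the same animals, so their shared sign is not separate evidence. Whether Scn3a moves with the injury genes was not tested.

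Scn4a had 6.98, 7.60 and 5.92 CPM in CreER-positive mice, against 5.98, 6.80 and 6.97 CPM in controls, from 243 to 467 reads per library. CreER-positive mice held both the highest and the lowest value. The log2 fold change was 0.05 ± 0.11 (SE; edgeR adjusted p 0.920, exact permutation p 0.7). At 243 reads counting error alone is 6.42%, the largest among the members, against 0.482% for the lowest Scn7a count.

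Most markers of skeletal muscle, the textbook site of Nav1.4, were highest in control replicate 2, and Scn4a was not. The exception was Chrna1, at 1.52 CPM there, against 1.97 and 1.74 CPM in control replicates 1 and 3. The part of muscle in the values of Scn4a was not tested. Muscle creatine kinase Ckm had 2.90, 3.77 and 2.97 CPM in CreER-positive mice, against 2.58, 11.0 and 2.66 CPM in controls. Skeletal actin Acta1 had 0.80, 1.92 and 0.977 CPM in CreER-positive mice, against 0.811, 12.5 and 0.949 CPM in controls. In both genes control replicate 2 was the single high library. The myosin gene Myh4 had 0.183, 0.862 and 0.751 CPM in CreER-positive mice, against 0.516, 10.8 and 0.411 CPM in controls. The ryanodine receptor gene Ryr1 had 1.95, 1.89 and 1.97 CPM in CreER-positive mice, against 2.36, 3.99 and 1.64 CPM in controls. Scn4a in control replicate 2, at 6.80 CPM, lay between the other 2 controls, and without that library its log2 fold change was 0.08. Mylpf had a log2 fold change of -1.25 (edgeR adjusted p 0.445) and Tnnt3 -2.09 (0.532). Both were high in control replicate 2 alone. Mylpf had 5.83 CPM there and 0.944 to 1.43 CPM elsewhere, and Tnnt3 had 8.45 CPM there and 0.317 to 1.13 CPM elsewhere. By edgeR 0 of 10 tested muscle genes were called, with 2 at an unadjusted p under 0.05 and 0 by DESeq2 or limma-voom, and the median was -1.21.

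**Figure D5:**
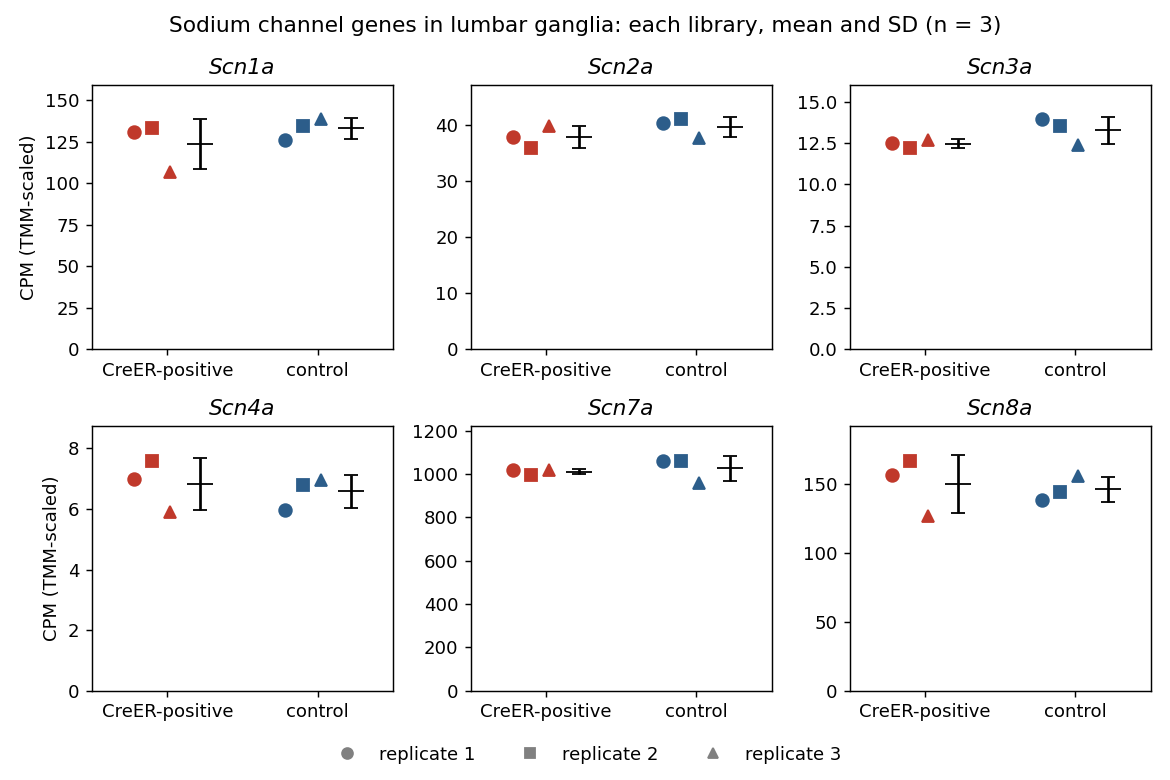
TMM-scaled CPM of each member in every library, from 0 on each vertical axis, with CreER-positive left of control, a marker shape for each replicate number, and the mean ± SD (n = 3) in black. The groups overlap for every gene, and Scn1a, Scn4a and Scn8a share the low CreER-positive replicate 3.

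Scn7a, the atypical member, had 1019, 998 and 1018 CPM in CreER-positive mice, against 1060, 1062 and 959 CPM in controls. The CreER-positive values lay inside the control range and close together, with a coefficient of variation of 1.18%, against 5.75% in controls. The log2 fold change was -0.02 ± 0.08 (SE), with an interval from -0.20 to 0.16 (edgeR adjusted p 0.958, exact permutation p 0.6). Scn7a ranked 64 of 22043 tested genes by mean CPM. Of the summed counts of the 6 members it made up 75.4 ± 2.09% in CreER-positive mice and 75.2 ± 1.74% in controls. Scn8a followed with 11.1 ± 1.36% in CreER-positive mice and 10.7 ± 1.01% in controls, and Scn1a with 9.20 ± 0.927% in CreER-positive mice and 9.76 ± 0.738% in controls.

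Schwann and satellite glia markers were set beside Scn7a, because peripheral glia are one of its known sites. Of 15 tested, edgeR called 0, with 3 at an unadjusted p under 0.05, and DESeq2 and limma-voom called 0. Their summed level was 6751 to 7716 CPM in CreER-positive libraries and 6493 to 6911 CPM in controls. The lipid carrier Apoe averaged 1470 CPM in CreER-positive mice and 1256 CPM in controls, and the compact myelin gene Pmp22 averaged 1165 CPM in CreER-positive mice and 1207 CPM in controls. Myelin basic protein Mbp averaged 1007 CPM in CreER-positive mice and 928 CPM in controls. The potassium channel gene Kcnj10 of satellite glia had a log2 fold change of 0.23 (edgeR adjusted p 0.248) and Ncam1, a cell adhesion gene, -0.12 (0.485). CreER-positive replicate 3 had the highest glial mean (0.17 on the log2 scale), where Scn7a was at -0.01. The largest rise of the list in that library was that of Fabp7, at 374 CPM, against 127 to 185 CPM in the other libraries. Ngfr of the same list was at its lowest there (395 CPM), so the mean does not stand for every glial marker. Scn7a was lowest in control replicate 3 (-0.10), where the glial mean was -0.02. Without CreER-positive replicate 3 the neurotrophin receptor gene Ngfr of the glia list was called (edgeR adjusted p 0.00151, against 0.369 with all libraries).

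The proteins that place sodium channels at initial segments and nodes of Ranvier showed no call either. Of 17 genes tested, edgeR called 0 in either direction, 2 had an unadjusted p under 0.05, DESeq2 and limma-voom called 0, and the median log2 fold change was 0.06. The potassium channel gene Kcnq3, which dampens firing at the initial segment, had 0.30 (adjusted p 0.381). The paranodal gene Cntnap1 had 0.24 (0.444) and was called without CreER-positive replicate 3 (0.0454), the juxtaparanodal gene Cntnap2 had 0.17 (0.525) and the nodal organiser gene Gldn 0.17 (0.563). Ank3, the ankyrin G scaffold that anchors the channels, averaged 340 CPM in CreER-positive mice and 354 CPM in controls.

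Genes for sodium leak and extrusion were likewise below the threshold. Of 12 tested, edgeR called 0, 5 had an unadjusted p under 0.05, limma-voom called 0, and DESeq2 called 1, Atp1b3 (adjusted p 0.00326). Atp1b3, a beta subunit of the sodium pump, had 520, 500 and 529 CPM in CreER-positive mice, against 439, 432 and 450 CPM in controls. The groups did not overlap, and the log2 fold change was 0.23 ± 0.06 (SE; edgeR adjusted p 0.194). The sodium-calcium exchanger gene Slc8a1 had -0.23 (0.295) and the pump subunit gene Atp1b2 0.22 (0.445). Without CreER-positive replicate 3 edgeR called 2 genes of this list, Atp1b3 (0.0463) among them. The list's median was 0.04.

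The A-fibre list, read beside Scn1a and Scn8a, had 0 of 12 genes called by edgeR, DESeq2 or limma-voom, with 3 at an unadjusted p under 0.05 and a median of 0.04. Cadps2, a vesicle priming gene, had -0.23 (edgeR adjusted p 0.250), the calcium-binding protein gene Necab2 -0.24 (0.417), the secreted phosphoprotein gene Spp1 0.17 (0.471) and the heavy neurofilament gene Nefh 0.31 (0.502). The remaining sodium channel genes, the nociceptor channels and the beta subunits, had 0 of 7 called by edgeR or limma-voom, 2 at an unadjusted p under 0.05 and 2 by DESeq2, Scn10a and Scn11a. Scn10a had -0.31 (edgeR adjusted p 0.156) and Scn11a -0.23 (0.234), each with no overlap between the groups. Without CreER-positive replicate 3 edgeR called 2 of the list, Scn10a (-0.28, 0.0307) and Scn2b (0.33, 0.0432). With all libraries the beta subunit gene Scn2b had 0.22 (0.483).

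Markers of spinal cord cells, where Scn2a and Scn8a are also expressed, were mostly at a low CPM. Of 8 markers 3 were tested and 0 called by edgeR, DESeq2 or limma-voom, with 2 at an unadjusted p under 0.05 and a median of 0.36. All 3 estimates were higher in CreER-positive mice. The oligodendrocyte gene Mobp had 2.77, 12.1 and 2.22 CPM in CreER-positive mice, against 0.639, 1.01 and 2.18 CPM in controls (2.10, edgeR adjusted p 0.273). Olig2 had 0, 0.0651 and 0.0188 CPM in CreER-positive mice, and the motor neuron gene Mnx1 had 0.0167, 0 and 0 CPM. Both were at 0 in all 3 controls. These values are a few reads at most, and neither gene passed the low-count filter, so they show no group difference. CreER-positive replicate 2, the library with the highest Mobp, had the highest Scn8a and the lowest Scn2a, and the part of these cells in either value was not tested. Without that library the log2 fold change was -0.04 for Scn8a and -0.03 for Scn2a. The summed level of the list was 25.9 to 36.5 CPM in CreER-positive libraries and 20.4 to 25.3 CPM in controls, most of it from Aqp4, a water channel gene, which averaged 24.0 CPM in CreER-positive mice and 20.9 CPM in controls.

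Overlapping annotated genes could add reads where strand was not used in counting. Gm13630, a non-coding gene on the opposite strand, covers 12095 bases of Scn1a and had 105 to 171 counts in CreER-positive mice and 139 to 190 in controls, against 5136 to 8753 for Scn1a. Gm34833 overlaps Scn3a with 2 to 8 counts per library, and Gm13595, an antisense gene over 3341 bases of Scn3a, was not matched to a row of counts, so its reads are unknown here. Prr29 overlaps Scn4a by 88 bases and had at most 4 counts. For Scn2a, Scn7a and Scn8a no overlapping gene was found in either annotation used.

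Profiles over the 6 libraries were compared with those of 14472 named genes, each averaging 1 CPM or more. Likeness was the root mean square difference of log2(CPM + 0.5) after centring each gene on its own mean. The closest to Scn1a were Actr3b, an actin-related protein gene, and the kinesin gene Kif21a, at 0.019 and 0.021. For Scn8a they were the endoplasmic reticulum stress factor gene Atf6 and Tspyl4, at 0.017 and 0.018. For Scn2a they were the endosomal adaptor gene Appl1 (0.012) and the zinc finger gene Zfp207 (0.014), and for Scn3a Mphosph9 (0.012) and the deubiquitinase gene Otud4 (0.018). For Scn4a they were BC024978 (0.014) and the monoacylglycerol lipase gene Mgll (0.021), and for Scn7a Spindoc and the Mediator subunit gene Med13 (0.014 each). The members themselves varied about their own means by 0.051 (Scn7a) to 0.131 (Scn8a) on this scale.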

How the data were processed

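RNA of lumbar ganglia was profiled in 6 libraries, grouped by the genotype label. The submitters' processing notes name GSNAP and GRCm38 (mm10). The sources used here do not state the counting tool, its annotation or its use of strand. By the file headers the authors deposited, for each of 36528 genes, raw counts, a width in bases and RPKM. The deposited counts entered every test. The deposited RPKM implies library totals that the summed counts exceed by 1.46% to 2.17%, and was used in that comparison alone. The deposited width lies within 5% of the annotated span for 77.7% of genes.

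Gene identifiers were joined to RefSeq symbols of GRCm38.p6 (31049 matched; the rest held 1.91% of counts and stayed in the fit without a name). edgeR 4.0.16 in R 4.3.3 was run with filterByExpr defaults (22043 genes kept), TMM factors and the quasi-likelihood F test with legacy mode off; p-values were Benjamini-Hochberg adjusted over all tested genes, with a threshold of 0.05. The common biological coefficient of variation was 8.99%. The standard error is the log2 fold change divided by the square root of F, and intervals use its total degrees of freedom. The fit was tested on simulated counts. Exact two-sided permutation tests used TMM-scaled CPM. Alternatives were DESeq2 1.42.0, limma-voom (limma 3.58.1), other scalings and filters, leaving out libraries, and, chosen after seeing the data, edgeR's legacy fit and ratios of member pairs. Counting error assumes independent reads.

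The members and gene lists were chosen with earlier results of these data known. Named genes were the members, up to 4 genes of each list with the smallest unadjusted p, every called list gene, the 2 closest profiles to each member, and up to 4 muscle and 4 glia markers with the highest mean CPM. Prph, Ank3, Jun, Sprr1a, Olig1, Olig2, Mnx1, Fabp7, Chrna1, Nefl, Nefm and the overlapping genes were chosen after their values were seen. A few items under the naming rule, and the shared coding sequences, are not reported here. Figures were drawn with matplotlib 3.10.9.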

Additional observations from a re-analysis of the deposited data

How the results depend on the processing

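No member was called under any of the 15 alternatives run, and the count of called members was 0 in each. Estimates stayed negative for Scn1a (-0.16 to -0.0017), Scn2a (-0.11 to -0.03) and Scn3a (-0.14 to -0.05). Those of Scn4a, Scn7a and Scn8a lay close enough to 0 to change sign when 1 library was left out. With 1 library left out, Scn4a ran from -0.033 (without CreER-positive replicate 2) to 0.14 (without CreER-positive replicate 3), with -0.010 without control replicate 1. Scn8a ran from -0.044 to 0.15, without the same CreER-positive replicates 2 and 3. Scn7a ran from -0.066 (without control replicate 3) to 0.0036 (without control replicate 2), with 0.0017 without control replicate 1. Scn1a depended most on CreER-positive replicate 3, with -0.01 without it. The lowest adjusted p of any member was 0.213, for Scn8a without CreER-positive replicate 3. Over all genes, 160 were called by edgeR and 425 by DESeq2, and between 60 and 568 when 1 library was left out: 71, 60 and 73 without control replicate 1, 2 and 3, and 568 without CreER-positive replicate 3. The cause was not tested. No paired analysis was possible because the replicate numbers were given in accession order and pair no animals. Counting error was largest for Scn4a and Scn3a, with 243 and 567 reads in the shallowest library. The SE of Scn3a (0.07) was nonetheless smaller than those of Scn7a (0.08), Scn1a (0.09) and Scn8a (0.10). With 3 animals a group, every interval is wide.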
